A study of Mus musculus with 11 samples.

Results

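The genes described here make, load or control classical MHC class I molecules in mouse macrophages. They are 9 genes of the 42375 named in the deposited count table, taken by name: the heavy chain genes H2-K1 and H2-D1, the heavy chain pseudogene H2-K2, the light chain gene B2m, the peptide transporter genes Tap1 and Tap2, the loading gene Tapbp, the trimming gene Erap1 and the regulator gene Nlrc5. The members were chosen by function, but at a time when fold changes and levels measured in these same libraries were known, so the adjusted p-values below describe these libraries and are no independent support. All 9 passed the filter on low counts that left 15024 genes to be tested.

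The cells were bone marrow derived macrophages (BMDM) of C57BL/6 mice, all of which carried a gapmer, an antisense oligonucleotide that triggers degradation of its target RNA, for 16 hours. The M1 KD group (2 libraries, replicates 5 and 6) was in the M1 state with the KD gapmer, aimed at the lncRNA MERRICAL, and the M1 NS group (3 libraries, replicates 1, 2 and 4) was in the M1 state with the NS gapmer. The M0 KD group (3 libraries, replicates 1, 2 and 4) was in the M0 state with the MERRICAL gapmer, and the M0 NS group (3 libraries, replicates 1, 2 and 4) was in the M0 state with the NS gapmer. The sources used here do not give the stimulus that made the cells M1. No group without a gapmer was analysed here. MERRICAL itself is not a name in the table, so its level was not checked.

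Class I molecules show peptides from inside the cell to CD8 T cells. A heavy chain folds in the endoplasmic reticulum with beta-2-microglobulin, receives a peptide that the TAP transporter brings in from the cytosol and that aminopeptidases trim, and leaves for the surface once tapasin and its partners have let a well fitting peptide bind. In macrophages interferons raise the transcription of these genes together, through IRF and STAT factors and through NLRC5, a transactivator that acts on an enhanceosome at class I promoters.

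The promoters are shown first because the factors named above act there and because the main heavy chain genes share much of theirs. RefSeq windows on GRCm38.p6, from 250 bases before to 50 bases after an annotated start, were matched for 6 of the 9 genes, and H2-K2, Tap2 and Nlrc5 are named only. The H2-K1 stretch lies at chr17:34000378-34000498 on the minus strand and the H2-D1 stretch at chr17:35262883-35263003 on the plus strand. Each has 121 bases, written 5′ to 3′ along its gene, and the capitals mark the letters of the kappaB core, a motif bound by NF-kappaB.
H2-K1: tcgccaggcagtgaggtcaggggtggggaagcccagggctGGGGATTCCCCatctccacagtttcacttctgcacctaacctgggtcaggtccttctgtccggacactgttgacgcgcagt
H2-D1: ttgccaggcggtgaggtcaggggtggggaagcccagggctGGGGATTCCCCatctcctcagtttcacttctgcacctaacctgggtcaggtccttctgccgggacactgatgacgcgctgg
Without gaps, 113 of the 121 bases were the same (93.4%) and 8 differed, and the capital letters were identical. The motif reads as a match on both strands, with overlapping matches 1 base apart.

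B2m and Erap1 carried the interferon-stimulated response element core, spelled GAAANNGAAA and searched on both strands. The B2m stretch lies at chr2:122147538-122147580 on the plus strand, and its capitals mark first the response element core and then a kappaB core. The Erap1 stretch lies at chr13:74639839-74639868 on the plus strand, and its capitals mark the response element core, which here reads on the opposite strand.
B2m: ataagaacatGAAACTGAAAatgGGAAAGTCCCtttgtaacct
Erap1: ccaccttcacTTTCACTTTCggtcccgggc
The B2m core lay 139 to 130 bases before the annotated start, and the Erap1 core spanned it. The kappaB core was in the windows of H2-K1, H2-D1 and B2m, and the CCAAT box in those of H2-K1, H2-D1, B2m, Tap1 and Tapbp. A gamma-activated site, spelled TTCNNNGAA, matched none of the 6 windows, which says only that these letters are not in them. The same limit holds for the response element core in the windows of H2-K1, H2-D1, Tap1 and Tapbp. Only its exact spelling was searched, so a sequence that differs by a base was not counted. Of all 32851 windows of that length, 3.44% held the response element core, 8.30% the gamma-activated site, 8.46% the kappaB core and 37.4% the CCAAT box. A match is a string of letters and was not tested for binding. No other motif was searched, so the windows do not show every site at which the factors named above act.

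Total counts ran from 30040632 to 43250392 per library. Replicates of a group differed by more than sampling noise (chi-square per degree of freedom 13.7 to 150), and nothing states that they were separate cultures, so p-values measure variation among these libraries, part or all of it possibly technical. None of the 9 macrophage markers was at 0, but they did not move together between the states. In M1 NS against M0 NS 5 of them rose and 3 fell (all genes 26.9% higher and 28.6% lower). Csf1r averaged 707 CPM in M1 NS and 4010 in M0 NS, and Emr1 4296 and 2118. Lyz2 was the largest of the 9 markers in every group. Their summed level was 15028 to 18156 CPM in M1 KD, 13843 to 16026 in M1 NS, 19456 to 21274 in M0 KD and 25831 to 27195 in M0 NS. T and NK cell markers summed to at most 4.28 CPM and B cell markers to at most 5.52 CPM in any library. The 11 neutrophil markers summed to 207 to 225 CPM in M1 KD, 241 to 313 in M1 NS, 727 to 749 in M0 KD and 1297 to 2275 in M0 NS. In M1 NS against M0 NS 10 of the 11 fell and none rose (all genes 28.6% lower and 26.9% higher). Lcn2 averaged 151 CPM in M1 KD, 136 in M1 NS, 49.3 in M0 KD and 119 in M0 NS. The 6 dendritic cell markers summed to 131 to 610 CPM in M1 KD and 107 to 338 in M1 NS, mostly Ccr7. They summed to 6.45 to 12.8 CPM in M0 KD and 10.4 to 11.03 in M0 NS, where Ccr7 averaged 0.96 and 1.20. In M1 NS against M0 NS 4 of the 6 rose and 2 fell (all genes 26.9% higher and 28.6% lower). The part of these cells in the results below was not tested, and in bulk RNA more cells of a kind and more RNA per cell cannot be told apart. CPM here is the count relative to all counts of tested genes, adjusted by TMM factors, while TPM also divides by exon length and is used to compare levels of different genes. That length is the union of all annotated exons: 860 bases for B2m (1 transcript), 5476 for Tap1 (7) and 3781 for Tap2 (5). Which transcripts the cells made was not examined, so the order of genes by TPM holds for these lengths only. Ratios of raw counts between genes are followed only from library to library, where exon length cancels, and say nothing of which gene is the more abundant.

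The 9 genes took up 2.47 and 2.68% of all counts in M1 KD, 1.81 to 2.31% in M1 NS, 0.747 to 0.898% in M0 KD and 0.800 to 1.27% in M0 NS. Per length, B2m was the most abundant in every group, at a mean of 23344 TPM in M1 KD, 15926 in M1 NS, 9042 in M0 KD and 8078 in M0 NS. H2-D1 followed at 11308 TPM in M1 KD, 9035 in M1 NS, 4632 in M0 KD and 6150 in M0 NS. H2-K1 was at 5169 TPM in M1 KD, 5118 in M1 NS, 1755 in M0 KD and 2399 in M0 NS. Tapbp came next in all groups, at 1508 TPM in M1 KD, 1442 in M1 NS, 389 in M0 KD and 482 in M0 NS. The transporter genes were lower still, with Tap1 at 701 TPM in M1 KD, 723 in M1 NS, 89.4 in M0 KD and 108 in M0 NS. Tap2 was at 367 TPM in M1 KD, 461 in M1 NS, 76.9 in M0 KD and 90.3 in M0 NS. Tap1 stood above Tap2 in every M1 library, while in M0 NS their ranges (79.3 to 142 and 80.1 to 105 TPM) overlapped. The last places changed with the group: Nlrc5 averaged 98.4 TPM in M1 KD and 183 in M1 NS but 23.4 in M0 KD and 23.96 in M0 NS, and the Erap1 group means lay between 38.7 and 58.8 TPM in all 4. H2-K2 averaged 106 TPM in M1 KD, where its range took in that of Nlrc5, and 18.2 TPM in M1 NS, where it was the lowest of the 9. In M0 KD its range of 22.9 to 35.1 TPM overlapped that of Nlrc5, and in M0 NS its range of 37.2 to 47.1 TPM overlapped that of Erap1. The ranges of B2m and H2-D1 overlapped in M0 NS and were separate in the other groups, and those of H2-D1, H2-K1 and Tapbp did not overlap in any group.

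**Figure D1:**
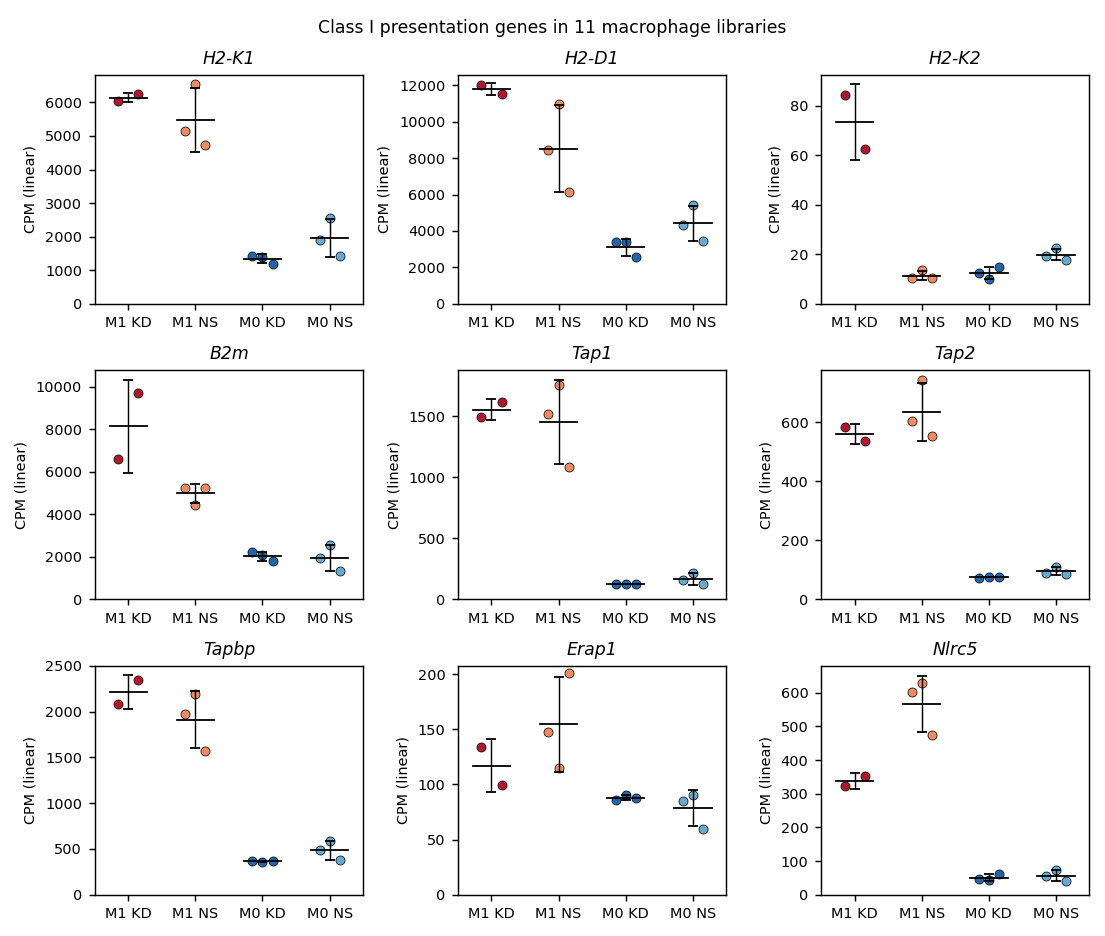
Level of each of the 9 genes (CPM, linear axis from 0) in the 11 libraries, by group in the order M1 KD, M1 NS, M0 KD, M0 NS. Points are libraries, bars the mean and whiskers the SD (n = 2 in M1 KD, 3 in the others). Most genes are higher in both M1 groups, whereas H2-K2 is at 84.3 and 62.7 CPM in M1 KD and at most 22.3 CPM elsewhere.

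The M1 state was read from M1 NS against M0 NS, and the same contrast under the MERRICAL gapmer from M1 KD against M0 KD. In M1 NS 8 of the 9 genes rose and 1, H2-K2, fell, against 26.9% of all genes tested called higher and 28.6% called lower (edgeR quasi-likelihood test, adjusted p under 0.05). The largest rises were those of Nlrc5, Tap1 and Tap2, at 10.03-, 8.86- and 6.68-fold. In M1 KD 8 genes rose and none fell, against 26.9% of all genes higher and 31.4% lower, with Erap1 the gene not called. The median log2 fold change over the 9 was 1.48 in M1 NS against M0 NS, where all genes had -0.04, and 2.57 in M1 KD against M0 KD, where all genes had -0.11. CPM ranges did not overlap for any of the 9 in M1 NS against M0 NS, with 8 above and 1 below (all genes: 28.6% above and 32.8% below), and all 9 lay above in M1 KD against M0 KD (all genes: 34.4% above and 40.6% below).

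The MERRICAL gapmer was compared with the NS gapmer within each state. In M1 cells H2-K2 rose 6.49-fold, Nlrc5 fell to 0.596 of its M1 NS level, and 7 genes were not called, against 17.6% of all genes higher and 19.2% lower. The median log2 fold change was 0.17 (all genes 0.001), and ranges lay above for H2-D1, H2-K2 and B2m and below for Nlrc5 (all genes: 26.1% above and 26.3% below). In M0 cells none of the 9 was called, as was the case for every gene tested (0% higher and 0% lower by edgeR). There 1947 of the 15024 genes had an unadjusted p under 0.05, among them H2-K1, H2-K2, Tap2 and Tapbp, and the count of all genes depended on the setting. It was 0 with limma-voom and limma-trend, 117 higher and 104 lower with DESeq2, 207 and 178 with no filter on low counts, and 545 and 558 with the 6 M0 libraries alone. Of the 9 genes, H2-K2 was called lower in these last 3 settings. The median over the 9 in M0 was -0.37 (all genes 0.003), and ranges lay below for H2-D1, H2-K2, Tap2 and Tapbp and above for none (all genes: 17.9% below and 17.2% above). Every group enters both a state and a gapmer contrast, so these results share libraries. M1 KD has replicate numbers found in no other group. In any contrast with M1 KD, the gapmer or the state therefore cannot be told apart from the set of replicates.

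**Figure D2:**
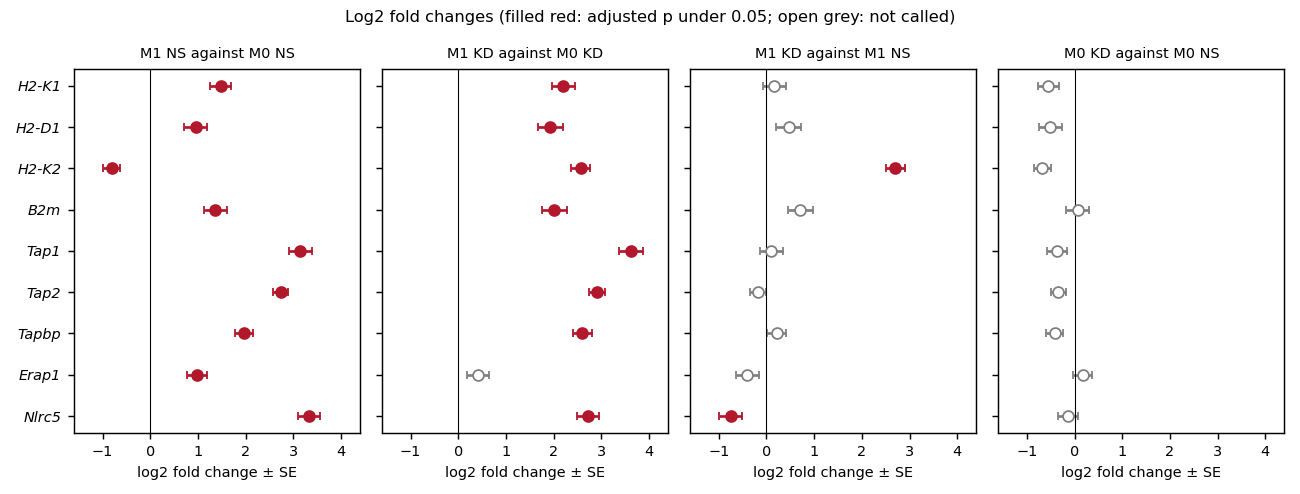
Log2 fold change (x axis) with its SE for each of the 9 genes (rows) in 4 comparisons, from the edgeR fit of all 11 libraries. Filled red points passed an adjusted p under 0.05 and open grey points did not. The M1 against M0 panels hold 8 called rises each, whereas the M1 gapmer panel holds 1 rise (H2-K2) and 1 fall (Nlrc5) and the M0 gapmer panel no call.

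H2-K1 encodes one of the classical heavy chains of this strain and lies on chromosome 17 of GRCm38 at 33996017 to 34000347 on the minus strand (GENCODE M21, protein coding). It was at 6044 and 6239 CPM in M1 KD replicates 5 and 6, at 5135, 6563 and 4725 CPM in M1 NS replicates 1, 2 and 4, at 1429, 1397 and 1187 CPM in M0 KD and at 1890, 2569 and 1421 CPM in M0 NS replicates 1, 2 and 4. Both M1 groups lay above both M0 groups, and within each state the gapmer groups overlapped, in M0 by a margin of 1429 in M0 KD against 1421 in M0 NS. H2-K1 rose in M1 NS against M0 NS by 1.48 on the log2 scale (SE 0.22, adjusted p = 0.00011, edgeR) and in M1 KD against M0 KD by 2.20 (SE 0.24, adjusted p = 9.52e-06). The gapmer contrast gave 0.17 (SE 0.24, adjusted p = 0.618) in M1 and -0.55 (SE 0.22, adjusted p = 0.349) in M0.

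H2-D1, the other classical heavy chain gene, lies at 35262730 to 35267499 on the plus strand of the same chromosome. It was at 12021 and 11551 CPM in M1 KD, at 8451, 10974 and 6157 CPM in M1 NS, at 3377, 3377 and 2553 CPM in M0 KD and at 4337, 5425 and 3471 CPM in M0 NS. The M1 KD libraries stood above every M1 NS library and the M0 KD libraries below every M0 NS library, so the gapmer groups were ordered oppositely in the 2 states. The fitted log2 fold changes were 0.47 (SE 0.26, adjusted p = 0.178) in M1 and -0.51 (SE 0.23, adjusted p = 0.385) in M0, neither of them called. Between the states H2-D1 rose by 0.95 with the NS gapmer (SE 0.24, adjusted p = 0.00444) and by 1.93 with the MERRICAL gapmer (SE 0.26, adjusted p = 4.98e-05).

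The balance of the heavy chains moved with the state. There were 0.503 and 0.540 H2-K1 counts for each H2-D1 count in M1 KD, against 0.608, 0.598 and 0.767 in M1 NS. In the M0 groups that ratio was 0.423, 0.414 and 0.465 in M0 KD and 0.436, 0.474 and 0.409 in M0 NS. All 5 M1 libraries thus stood above all 6 M0 libraries, and M1 KD lay between M1 NS and M0 without overlap. These ratios were taken after the levels were seen and carry no test. Of the 50-base stretches in the exons, 9.63% of those of H2-K1 and 12.8% of those of H2-D1 also occur in another gene, and 4.08% of the H2-K1 stretches occur in H2-D1. The sources used here do not say how such reads entered the counts.

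H2-K2 departed from the other genes. GENCODE M21 lists it as a transcribed unprocessed pseudogene, at 33974659 to 33978827 on the minus strand of chromosome 17, 17189 bases from H2-K1, so its RNA is not a measure of surface class I. It was at 84.3 and 62.7 CPM in M1 KD, at 10.3, 13.5 and 10.3 CPM in M1 NS, at 12.3, 9.96 and 14.9 CPM in M0 KD and at 19.3, 22.3 and 17.8 CPM in M0 NS. The raw counts behind these were 3071 and 1715 in M1 KD and 341 to 366 in M1 NS, with no library below that. M1 KD stood above every other library, and M1 NS and M0 KD overlapped and both lay below M0 NS. H2-K2 rose in M1 KD against M1 NS by 2.70 on the log2 scale (SE 0.20, adjusted p = 5.72e-06) and in M1 KD against M0 KD by 2.57 (SE 0.20, adjusted p = 5.91e-07). It fell in M1 NS against M0 NS by 0.81 (SE 0.18, adjusted p = 0.0023), and gave -0.68 in M0 KD against M0 NS (SE 0.18, adjusted p = 0.232).

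Set against its neighbour, H2-K2 had 13.9 and 10.05 counts per 1000 H2-K1 counts in M1 KD, against 1.997, 2.06 and 2.18 in M1 NS. The same ratio was 8.63, 7.13 and 12.5 in M0 KD and 10.2, 8.69 and 12.6 in M0 NS. M1 NS was the group apart on this measure, and M1 KD overlapped both M0 groups. Of the 50-base stretches of H2-K2, 9.38% occur in another gene, 0.852% in H2-K1 and 3.41% in H2-D1. Of its coding neighbours, chosen after the H2-K2 values were seen, Vps52, at a distance of 7623 bases, was at 49.2 CPM in M1 KD and 47.0 in M1 NS (log2 fold change 0.07, SE 0.12, adjusted p = 0.676). Rps18 (0.55, adjusted p = 0.0816) and Ring1 (0.25, adjusted p = 0.246) were not called, and B3galt4 fell by 0.76 (adjusted p = 0.0214). Ring1 rose in M1 KD against M0 KD by 0.67 (adjusted p = 0.00294). Its M1 gapmer effect minus its M0 gapmer effect was 0.68 (adjusted p = 0.0337). Vps52, Rps18 and B3galt4 were called in neither of these comparisons.

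B2m encodes beta-2-microglobulin, the light chain of every classical class I molecule, and lies on chromosome 2 at 122147686 to 122153083 on the plus strand. It was at 6598 and 9688 CPM in M1 KD, at 5245, 4453 and 5242 CPM in M1 NS, at 2205, 2065 and 1786 CPM in M0 KD and at 1942, 2546 and 1307 CPM in M0 NS. Both M1 KD libraries stood above M1 NS, although they differed from each other by more than the M1 NS libraries did, and the M0 groups overlapped. B2m rose with the state, by 1.37 in M1 NS against M0 NS (SE 0.24, adjusted p = 0.000408) and by 2.01 in M1 KD against M0 KD (SE 0.26, adjusted p = 3.76e-05). Its log2 fold change in M1 KD against M1 NS was 0.71 (SE 0.26, adjusted p = 0.0501), just over the threshold. That call turned on the setting, passing in 9 alternatives and not in 13. Among those passing were DESeq2 (adjusted p = 0.014) and no filter on low counts (0.00783). With a library left out the B2m log2 fold change ran from 0.40 to 0.95, the latter without M1 KD replicate 5. In M0 the value was 0.06 (SE 0.24, adjusted p = 0.921).

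The light chain was also set against both heavy chains per length. Its TPM over the summed TPM of H2-K1 and H2-D1 was 1.14 and 1.71 in M1 KD and 1.21, 0.798 and 1.53 in M1 NS, which overlapped. It was 1.43, 1.35 and 1.49 in M0 KD and 0.971, 0.994 and 0.830 in M0 NS, so that M0 KD lay above M0 NS without overlap. No B2m stretch of 50 bases occurs in another gene.

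**Figure D3:**
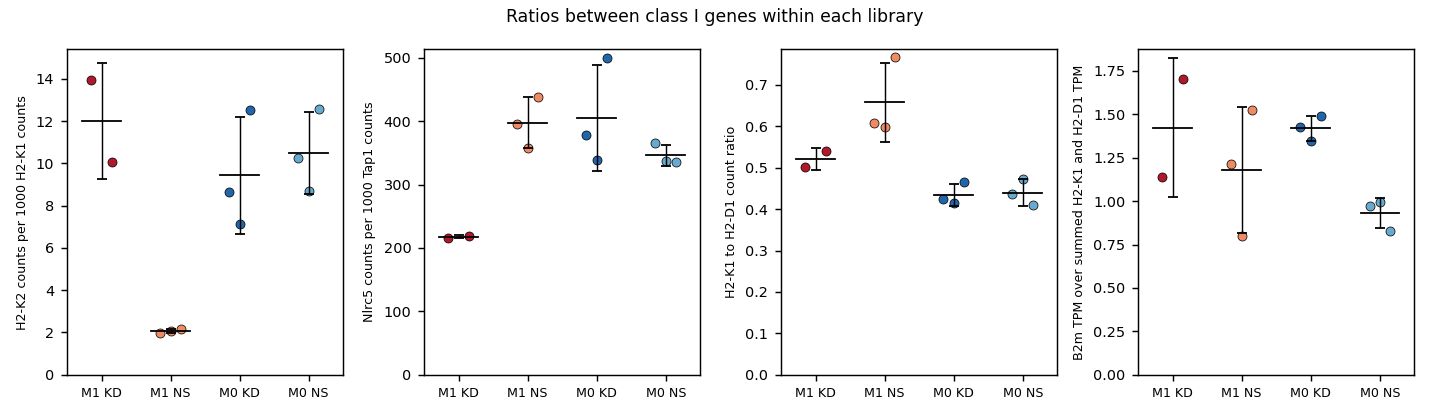
Ratios within each library (y axes, linear from 0) by group: H2-K2 counts per 1000 H2-K1 counts, Nlrc5 counts per 1000 Tap1 counts, the H2-K1 to H2-D1 count ratio, and B2m TPM over summed H2-K1 and H2-D1 TPM. Points are libraries, bars the mean and whiskers the SD (n = 2 in M1 KD, 3 in the others). M1 NS stands apart at 1.997 to 2.18 in the first panel and M1 KD at 216 and 219 in the second.

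Tap1 and Tap2 encode the partner subunits of the peptide transporter and lie close together on chromosome 17, at 34187553 to 34197225 and 34203527 to 34216321, both on the plus strand. Tap1 was at 1493 and 1614 CPM in M1 KD, at 1517, 1756 and 1080 CPM in M1 NS, at 128, 128 and 124 CPM in M0 KD and at 155, 215 and 121 CPM in M0 NS. Tap2 was at 584 and 537 CPM in M1 KD, at 605, 744 and 553 CPM in M1 NS, at 73.7, 76.0 and 75.8 CPM in M0 KD and at 90.3, 110 and 84.8 CPM in M0 NS. The states were far apart for both genes, the M1 gapmer groups overlapped, and in M0 only the Tap2 ranges were separate, with M0 KD below. Tap1 rose by 3.15 in M1 NS against M0 NS (SE 0.24, adjusted p = 4.03e-07) and by 3.62 in M1 KD against M0 KD (SE 0.25, adjusted p = 2.61e-07). Tap2 rose by 2.74 (SE 0.16, adjusted p = 5.15e-08) in M1 NS against M0 NS and by 2.90 (SE 0.17, adjusted p = 7.28e-08) in M1 KD against M0 KD.

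With the MERRICAL gapmer neither transporter gene was called. Tap1 gave 0.10 in M1 (SE 0.24, adjusted p = 0.774), a sign that turned to -0.03 without M1 NS replicate 4, and -0.37 in M0 (adjusted p = 0.46). Tap2 gave -0.18 in M1 (SE 0.17, adjusted p = 0.424) and -0.34 in M0 (adjusted p = 0.374). There were 2.56 and 3.01 Tap1 counts for each Tap2 count in M1 KD, 2.51, 2.36 and 1.95 in M1 NS, 1.73, 1.68 and 1.64 in M0 KD and 1.72, 1.96 and 1.43 in M0 NS. M1 KD was above M1 NS and M0 on this ratio, while M1 NS replicate 4 lay level with the highest M0 NS library. Tap1 shares 212 exon bases with Psmb9 on the other strand, and 14.1% of the Tap2 exon bases overlap Gm15821, which was at no more than 2.02 CPM in any M1 NS library.

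Tapbp encodes tapasin, which holds the empty heavy chain at the transporter, and lies on chromosome 17 at 33915899 to 33929292 on the plus strand. It was at 2082 and 2345 CPM in M1 KD, at 1973, 2191 and 1572 CPM in M1 NS, at 366, 360 and 369 CPM in M0 KD and at 484, 592 and 384 CPM in M0 NS. The M1 groups overlapped, and every M0 KD library lay below every M0 NS library. Tapbp rose by 1.97 in M1 NS against M0 NS (SE 0.19, adjusted p = 2.85e-06) and by 2.60 in M1 KD against M0 KD (SE 0.20, adjusted p = 6.41e-07). It gave 0.21 (adjusted p = 0.437) for the gapmer in M1 and -0.41 (adjusted p = 0.374) in M0. Of its exon bases 24.9% overlap Gm19412 on the other strand, whose mean was at most 3.59 CPM in any group.

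Erap1 encodes an aminopeptidase of the endoplasmic reticulum that trims peptides to length, and lies on chromosome 13 at 74639568 to 74693201 on the plus strand. It was at 134 and 99.9 CPM in M1 KD, at 148, 114 and 201 CPM in M1 NS, at 86.0, 90.1 and 87.9 CPM in M0 KD and at 85.3, 90.0 and 59.8 CPM in M0 NS. The M1 libraries were all higher than the M0 libraries, by a small margin in M1 KD, and M1 KD overlapped M1 NS. Erap1 rose in M1 NS against M0 NS by 0.98 (SE 0.21, adjusted p = 0.00167) and was not called in M1 KD against M0 KD, at 0.41 (SE 0.23, adjusted p = 0.144). This value turned to -0.07 (adjusted p = 0.805) with library size as the only scaling, and it was called in the fit of those 2 groups alone (0.50, adjusted p = 0.0174) and without M1 NS replicate 4 (0.46, adjusted p = 0.0422). For the gapmer it gave -0.40 in M1 (adjusted p = 0.201) and 0.17 in M0 (adjusted p = 0.727). Its exons overlap those of Cast on the other strand over 11.5% of their bases, and Cast averaged 90.5 CPM in M1 KD, 90.3 in M1 NS, 117 in M0 KD and 103 in M0 NS. The sources used here do not say whether counting used the strand, so the reads in that overlap cannot be told apart.

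Nlrc5 encodes the class I transactivator and lies on chromosome 8 of the mouse at 94434356 to 94527272 on the plus strand. It was at 322 and 354 CPM in M1 KD, at 601, 629 and 473 CPM in M1 NS, at 48.3, 43.2 and 62.1 CPM in M0 KD and at 56.5, 72.4 and 40.8 CPM in M0 NS. Both M1 KD libraries lay below every M1 NS library and above every M0 library, and the M0 groups overlapped. Nlrc5 fell in M1 KD against M1 NS by 0.75 on the log2 scale (SE 0.24, adjusted p = 0.0272, edgeR). The call was lost with upper-quartile factors (adjusted p = 0.0581), with the 2 M1 groups alone (0.0511), and without M1 NS replicate 1 (0.0688) or 2 (0.061) or M1 KD replicate 5 (0.141) or 6 (0.0758), at log2 fold changes of -0.82 to -0.60 over all settings. It rose in M1 NS against M0 NS by 3.33 (SE 0.23, adjusted p = 2e-07) and in M1 KD against M0 KD by 2.72 (SE 0.23, adjusted p = 1.4e-06). In M0 KD against M0 NS it gave -0.14 (adjusted p = 0.768), which turned to 0.07 without M0 NS replicate 2.

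Nlrc5 was also set against Tap1, one of the genes it is known to activate. Per 1000 Tap1 counts there were 216 and 219 Nlrc5 counts in M1 KD, against 396, 358 and 438 in M1 NS. In M0 the ratio was 378, 338 and 499 in M0 KD and 365, 337 and 336 in M0 NS. M1 KD thus lay below all 9 other libraries. In the same contrast H2-K1, H2-D1, B2m, Tap1 and Tapbp had log2 fold changes from 0.10 to 0.71 and Tap2 had -0.18, none of them called.

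Whether the gapmer effect differed between the states was tested as the M1 effect minus the M0 effect. H2-K2 alone passed, with a difference of 3.38 on the log2 scale (SE 0.27, adjusted p = 3.67e-05), against 13.1% of all genes called higher and 14.2% lower. H2-D1 gave 0.97 (SE 0.35, adjusted p = 0.0569), over the threshold here but under it with DESeq2 (0.0173), with no filter on low counts (0.0104) and without M0 NS replicate 4 (0.0387) or M1 NS replicate 2 (0.0201). H2-K1 (0.72, adjusted p = 0.119), B2m (0.65, 0.196), Tapbp (0.63, 0.106), Tap1 (0.47, 0.307) and Tap2 (0.16, 0.63) had positive differences that did not pass. Erap1 (-0.57, adjusted p = 0.2) and Nlrc5 (-0.60, adjusted p = 0.174) had negative ones that did not pass. The median over the 9 was 0.63 and that of all genes -0.02. Without M0 NS replicate 4, which was the lowest library of its group for each of the 9 genes, H2-K1 (adjusted p = 0.0419), H2-D1 and Tapbp (0.046) were called beside H2-K2.

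As a description over the 11 libraries, each gene's log2 CPM was correlated with the mean of the other 8, standardised per gene. Pearson's r was 0.937 to 0.991 for H2-K1, H2-D1, B2m, Tap1, Tap2, Tapbp and Nlrc5, 0.689 for Erap1 and 0.349 for H2-K2. These points share the split into M0 and M1, so r mostly reads that split. Of the other genes the most like the mean of the 9 were H2-Q4 (r = 0.998), Bst2 (0.997), H2-T23 (0.997), Zbp1 (0.996) and H2-T22 (0.995). The most like Nlrc5 were Batf2 (0.997), Bcl2a1d (0.997) and Gch1 (0.996). The most like H2-K2, a list added after its values were seen, were Bbc3 (0.976), Sh3tc1 (0.976) and Slc41a1 (0.971). Bbc3 was at a mean of 71.3 CPM in M1 KD, 20.0 in M1 NS, 19.5 in M0 KD and 27.8 in M0 NS.

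Around the 9 genes, the rest of the pathway was read from lists put together by function, with no gene dropped for its values. Of 25 further class I and class I-like heavy chain genes 22 were in the table and 16 were tested. In M1 NS against M0 NS 12 rose and 3 fell (median 2.04; all genes 26.9% higher and 28.6% lower), and the largest were H2-Q6 (5.26), H2-Q7 (4.63) and Hfe (-4.56), an iron-regulating class I-like gene. H2-Q6 and H2-Q7 are near copies whose reads may have been split in counting, and without M0 NS replicate 2 they gave 6.07 and 5.32. Between M1 KD and M1 NS 4 rose and 1 fell (median 0.16; all genes 17.6% higher and 19.2% lower). Cd1d1, which presents lipids to NKT cells, fell to 6.77 ± 0.922 CPM in M1 KD (SD, n = 2), against 42.2 ± 37.9 in M1 NS (SD, n = 3, from 19.1 to 86.0), a log2 fold change of -2.64 (adjusted p = 0.00364, edgeR). Without M1 NS replicate 4, its highest library, the Cd1d1 value was -1.55 (adjusted p = 0.000278), and its rise of 1.23 in M1 NS against M0 NS became 0.19 and was not called (adjusted p = 0.405). Fcgrt, the neonatal Fc receptor heavy chain, rose by 1.18 (adjusted p = 0.0021) and Hfe by 0.94 (adjusted p = 0.00464). The count of rises was 2 without M1 NS replicate 1 or with the M1 groups alone. All genes called higher numbered 2056 and 1558 there, against 2645 in the main fit. The Hfe value was 0.65 without M1 KD replicate 5.

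The immunoproteasome and its activator make many of the peptides that TAP carries. All 5 genes rose in M1 NS against M0 NS, where 26.9% of all genes did (median 2.48), led by Psme2 (2.83), Psmb8 (2.49) and Psmb9 (2.48). Of the 5, 1 rose in M1 KD against M1 NS, Psmb9 at 462 ± 3.49 CPM in M1 KD and 301 ± 71.9 in M1 NS (SD, n = 2 and 3; log2 fold change 0.62, adjusted p = 0.0214, edgeR), and the list median was 0.28. That share is near the 17.6% of all genes called higher. The call of Psmb9 was lost with the M1 groups alone (adjusted p = 0.0842) and without M1 NS replicate 1 (0.0625) or M1 KD replicate 5 (0.0814) or 6 (0.0763). The difference of the gapmer effects was called higher for 4 of the 5 and for 13.1% of all genes, Psmb9 by 1.04 (adjusted p = 0.0105). It was called for 1 of the 5 without M0 NS replicate 1 or 2, M1 NS replicate 1 or any M0 KD replicate. Those fits called 1374 to 1598 of all genes higher, against 1965 in the main fit. Psmb9 overlaps Tap1 on the other strand, by 3.87% of the Tap1 exon bases.

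Chaperone and peptidase genes that passed the test in M1 KD against M1 NS were all lower. Of 10 further loading and chaperone genes none rose and 5 fell in M1 KD against M1 NS (median -0.49; all genes 17.6% higher and 19.2% lower), among them Uggt1, which checks glycoprotein folding (-1.12, adjusted p = 0.000395), calreticulin, Calr (-0.88, 0.00316), and calnexin, Canx (-0.77, 0.00373). Of 9 cytosolic and trimming peptidase genes none rose and 6 fell (median -0.55), among them Lnpep, an endosomal aminopeptidase of cross-presentation (-1.55, 0.000813), Dpp8 (-1.08, 0.000256) and Tpp2 (-1.003, 0.000683). With the M1 groups alone 3 genes fell on each list, and with upper-quartile factors 3 chaperone genes. All genes called lower numbered 1546 and 2177 in these settings, against 2890 in the main fit. In M1 NS against M0 NS the chaperone list had 4 higher and 1 lower (median 0.31), with Tapbpl at 2.56, Ero1l at 2.22 and Hspa5 at 0.93, and the peptidase list 4 higher and none lower (median 0.20; all genes 26.9% and 28.6%), with Lap3 at 2.12, Lnpep at 1.31 and Nrd1 at 0.62. With library size as the only scaling these medians turned to -0.07 for the chaperones and -0.18 for the peptidases, with 3 higher and 3 lower and with 2 higher and 3 lower, while the median of all genes was -0.42. In that setting 2348 of all 15024 genes tested were called higher and 6447 lower. The difference between the gapmer effects was called lower for 3 of 10 chaperone and 5 of 9 peptidase genes and for 14.2% of all genes, by 1.17 for Uggt1 and 2.03 for Lnpep.

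Of 17 regulators of class I, 12 rose and 1 fell in M1 NS against M0 NS (median 0.68; all genes 26.9% higher and 28.6% lower), led by Irf1 (3.37), Ciita (2.62) and Stat2 (2.14). Of the same 17, 4 rose and 2 fell in M1 KD against M1 NS (median 0.06), with 17.6% of all genes higher and 19.2% lower, so the list as a whole was close to all genes. Irf1, an interferon response factor that acts at class I promoters, was at 3962 ± 739 CPM in M1 KD and 1353 ± 241 in M1 NS (SD, n = 2 and 3; log2 fold change 1.55, adjusted p = 0.00015, edgeR), and Irf8 at 3043 ± 590 CPM in M1 KD and 811 ± 252 in M1 NS (1.91, 0.000117). Both rose in the contrast where Nlrc5 fell, a fall whose call depended on the setting. A link between them was not tested. Rfxank, a subunit of the RFX complex of the enhanceosome, rose by 0.91 (0.00381), while Nfyb of the NF-Y complex, which binds the CCAAT box, fell by 0.85 (0.00318).

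Of 7 interferon receptor and kinase genes 3 rose and 2 fell in M1 NS against M0 NS (median 0.16; all genes 26.9% higher and 28.6% lower), with Jak2 at 3.33, Ifngr1 at -2.46 and Tyk2 at 1.29. Between M1 KD and M1 NS none rose and 1, Ifnar1, fell (-0.36, at an adjusted p that rounds to 0.05 and was over it without any single library other than M1 NS replicate 2). Of 9 export and turnover genes 4 rose and 3 fell in M1 NS against M0 NS (median -0.07), again beside 26.9% and 28.6% of all genes, with Rab27a at -2.20, March9 at -1.21 and Wdfy4 at -1.14. In M1 KD against M1 NS 1 rose, the ubiquitin ligase gene March9 (1.38), and 2 fell, Wdfy4 (-1.45), which serves cross-presentation, and March1 (-1.02). Of all genes 17.6% rose and 19.2% fell there, so neither list's counts stand out. March1 gave -0.47 and was not called without M1 NS replicate 4 (adjusted p = 0.127). With library size as the only scaling, the M1 NS against M0 NS medians of these lists were -0.23 and -0.44.

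Class II genes, set beside class I, had 7 of 10 higher and none lower in M1 NS against M0 NS (median 1.64; all genes 26.9% and 28.6%), with H2-Ab1 at 3.46, H2-Aa at 2.96 and H2-Eb1 at 2.79. Between M1 KD and M1 NS 3 rose and none fell (median 0.84; all genes 17.6% and 19.2%), namely H2-Oa (1.66) and the peptide exchange chain genes H2-DMb1 (0.84) and H2-DMa (0.83). The count of rises was 5 with no filter on low counts and without M0 KD replicate 4. All genes called higher numbered 2820 and 2535 there, against 2645 in the main fit. H2-Oa was lost without M1 KD replicate 5 (adjusted p = 0.0554), and H2-DMa without M1 KD replicate 6 (log2 fold change 0.60, adjusted p = 0.0906). None of the genes on these 8 lists was called in M0 KD against M0 NS, where 0% of all genes tested were called, so this says nothing particular of the lists. The dendritic cell marker sum, given above, reached its highest value in an M1 KD library, and its part in the class II values was not tested.

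**Figure D4:**
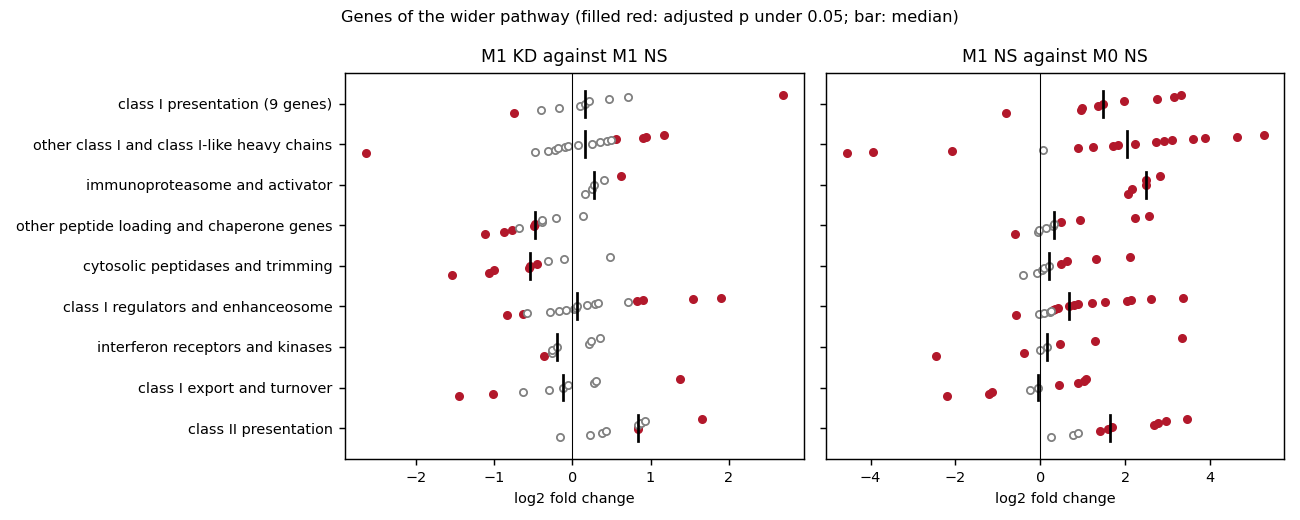
Log2 fold change (x axis) of every tested gene of the class I presentation genes and of 8 lists of the wider pathway (rows), in M1 KD against M1 NS (left) and M1 NS against M0 NS (right). Filled red points passed an adjusted p under 0.05, open grey points did not, and bars are list medians. In M1 KD against M1 NS the chaperone and peptidase medians lie at -0.49 and -0.55, and the class II median at 0.84.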

How the data were processed

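The submitters' processing notes name the build GRCm38 and the tools STAR 2.5.2b, Trimmomatic 0.36, Subread 1.5.2 and featureCounts. The deposited table holds whole-number counts per gene and library. A second deposited table, a normalized signal for 22812 genes, equalled the count divided by the median-of-ratios size factor of the library. An entry with a blank name held at most 0.000305% of counts and was left out. The sources used here do not give the read length, the strand setting or the treatment of reads that map to several genes.

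Counts were tested with edgeR 4.0.16 in R 4.3.3: filterByExpr by group (minimum count 10, minimum total 15), TMM factors and 1 robust quasi-likelihood fit of all 11 libraries with a coefficient per group. A call is an adjusted p (Benjamini-Hochberg, over all 15024 genes) under 0.05, and adjusted p-values in the text come from this fit unless a tool is named. Each SE is the log2 fold change divided by the square root of F. TPM used union exon lengths of GENCODE M21 for 38983 named genes. Log2 CPM used a prior count of 2. The procedure was tested on simulated data in which far fewer genes changed than between M0 and M1 here. That test does not cover scaling under so wide a shift.

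The members and gene lists were chosen with earlier results of these data known. All 9 genes are named in every comparison. Of each list, the 3 called genes with the largest change are named. Genes most like the 9 were taken by Pearson r where the mean log2 CPM was at least 3. Replicate numbers are not stated to mark a shared source. Alternatives were RLE, upper-quartile or no scaling factors, other filters, DESeq2 1.42.0, limma-voom and limma-trend (limma 3.58.1), a threshold of 0.01, the compared groups alone, the number as a block, and each library left out.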

Additional observations from a re-analysis of the deposited data

Results flagged for a closer look

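The gapmer contrast of H2-K2 differed between the states, although gapmer and replicate set cannot be told apart in M1. Its M1 effect minus its M0 effect was 3.38 on the log2 scale (SE 0.27, adjusted p = 3.67e-05 by edgeR over all genes tested), with both M1 KD libraries above all 3 M1 NS libraries and all 3 M0 KD libraries below all 3 M0 NS libraries. Over all alternatives and left-out libraries the difference ran from 3.14 to 3.58, with adjusted p of at most 0.000293.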

How the results depend on the processing

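With library size as the only scaling, the median over the 9 genes was 1.10 in M1 NS against M0 NS and 2.08 in M1 KD against M0 KD, and the median of all genes was -0.42 and -0.59. In M1 KD against M1 NS 2 genes were called higher, B2m being added, with RLE or upper-quartile factors, no filter on low counts, at least 50 counts in 2 libraries, or DESeq2, and 1 to 2 with a library left out (2 without M0 NS replicate 2 or 4, M1 NS replicate 4 or M1 KD replicate 5). The number called lower there was 0, Nlrc5 being lost, with upper-quartile factors, at an adjusted p under 0.01 and with the compared groups alone, and 0 to 1 with a library left out. Where M1 KD kept 1 library, it was assumed to vary like the other groups. In M0 KD against M0 NS 1 gene was called lower, H2-K2, with no filter (adjusted p = 0.00762), DESeq2 (0.0436) and the compared groups alone (0.0372). There the B2m log2 fold change was -0.15 without M0 NS replicate 4 and -0.0043 without M0 KD replicate 1, against 0.31 without M0 NS replicate 2, and that of Nlrc5 was -0.33 without M0 NS replicate 4 and 0.073 without replicate 2. The difference of the gapmer effects was called higher for 2 genes, H2-D1 being added, with upper-quartile factors, no filter, at least 50 counts, DESeq2 and limma-voom, and for 1 to 4 with a library left out. Reversed too were Erap1 in M1 KD against M0 KD, -0.073 with library size only, and Tap1 in M1 KD against M1 NS, -0.035 without M1 NS replicate 4 and 0.26 without replicate 2. The numbers of all genes called moved with the setting too. In M1 KD against M1 NS 2645 were higher in the main fit, 3454 with upper-quartile factors and 2498 with at least 50 counts. There 2890 were lower in the main fit, 2177 with upper-quartile factors and 1546 with the compared groups alone. The difference was called higher for 1965 genes in the main fit, 2474 with upper-quartile factors, 2351 with DESeq2 and 1951 with limma-voom. The cause of these changes was not tested. With H2-K2 left out, an alternative chosen after seeing the data, the medians were 1.73, 2.40, 0.13 and -0.35 in the 4 comparisons and 0.55 for the difference.

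With the label number as a replicate block, 8 genes were higher and 1 lower in M1 NS against M0 NS (median 1.54) and none was called in M0 KD against M0 NS (median -0.32). Same-numbered libraries did not deviate together throughout (r = 0.0221 to 0.135 between M0 KD and M0 NS, -0.0825 to 0.0899 between M1 NS and M0 NS), and 5 of 6 and 2 of 6 libraries correlated best with their own number. No paired analysis was possible for M1 KD because its numbers, 5 and 6, occur in no other group. For the same reason, gapmer and replicate set cannot be told apart in the M1 gapmer contrast or in the difference of the gapmer effects. Having 2 M1 KD libraries limits every value that rests on them.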
